A study of Homo sapiens with 5 samples.

Results

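MYC binding was compared between cells that carried an inducible hairpin against MED30 and were left without doxycycline, and the same line after 3 days of doxycycline, the drug that switches the hairpin on. The members are the MYC peaks of those libraries on chromosomes 1 to 22 and X. Peaks were kept at a q-value of 0.05 in both lists, and stretches of over 2 Mb without a RefSeq gene were left out. That gave 2499 peaks without doxycycline and 1518 with it, 4017 of the 51322 peaks deposited in all 5 peak lists of the series, before any filter. Most deposited peaks of both lists lay in the stretches left out, 4331 of 7158 without doxycycline and 2496 of 4621 with it.

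The study was a chromatin immunoprecipitation sequencing (ChIP-seq) series in the human pancreatic cancer cell line MIA PaCa-2. Both groups described here share the tet-on shMED30 construct, so the group without doxycycline is not the parental line. Parental MIA PaCa-2 cells in normal culture, without the construct, were used for separate MED17, MED30 and MYC lists, which serve below only to describe the sites. Chromatin for MYC was fixed with formaldehyde alone while the Mediator subunits' chromatin saw an additional protein crosslinker first. Whether the hairpin line was 1 clone, how many hairpins were used and how far MED30 was reduced were not given in the sources used here. No group received doxycycline without the hairpin, so the drug and the hairpin cannot be told apart. Each group had 1 library. The differences below were therefore not tested over replicates, and there are no p-values.

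MYC is a basic helix-loop-helix leucine zipper transcription factor. It binds DNA as a heterodimer with MAX, with preference for the E-box CACGTG and close variants, and it is known for binding the promoters of genes for ribosome production, translation, nucleotide synthesis and other functions of growing cells. Mediator is the multi-subunit complex that links transcription factors at promoters and enhancers to RNA polymerase II. MED30 is a subunit of the Mediator core found in animals, and MED17 is a central scaffold subunit of the head module.

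The library with doxycycline was the shallower one. The background pileup, which is the number of fragments stacked over an average position and scales with depth, was 0.310 fragments without doxycycline and 0.186 with it, a ratio of 0.599. Summit pileup, the number of fragments stacked at the highest point of a peak, had a median of 8 fragments without doxycycline (10th to 90th percentile 5 to 17) and 6 with it (4 to 13). The parental MYC list had a background pileup of 2.56 fragments. A peak called in the deeper library can thus be missing from the shallower one with no change in binding, so kept, lost and gained below describe the lists, and each count is read beside the pileup. "Kept" means that a peak shares at least 1 bp with a peak of the other list, "lost" that it is listed without doxycycline only and "gained" that it is listed with doxycycline only.

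Promoter sequences under some of the highest peaks of each class are shown first, because E-box letters differed in frequency between the classes. For each class these are the 3 highest peaks by fold whose summit lay upstream of a gene start, within the 250 bases before it and outside every RefSeq gene. Each stretch runs up to 50 bases either side of the summit, 5′ to 3′ on the strand of the gene, from RefSeq (GRCh38.p14). Capitals mark CACGTG, which reads the same on both strands. The kept promoters were RABGGTB (chr1:75786012-75786112, plus strand), MTHFD2 (chr2:74198551-74198614, plus strand) and PRDM15 (chr21:41879491-41879591, minus strand).
RABGGTB: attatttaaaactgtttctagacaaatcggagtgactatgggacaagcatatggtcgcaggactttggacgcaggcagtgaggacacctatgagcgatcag
MTHFD2: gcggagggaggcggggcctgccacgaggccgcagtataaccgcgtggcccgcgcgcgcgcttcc
PRDM15: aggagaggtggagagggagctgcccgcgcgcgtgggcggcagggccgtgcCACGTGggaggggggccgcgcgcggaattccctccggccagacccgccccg
The lost promoters were RGS10 (chr10:119542792-119542892), ZNF121 (chr19:9584505-9584577) and SPIN3 (chrX:56995571-56995671), all on the minus strand.
RGS10: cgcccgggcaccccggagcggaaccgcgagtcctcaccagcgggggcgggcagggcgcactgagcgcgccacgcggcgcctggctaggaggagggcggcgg
ZNF121: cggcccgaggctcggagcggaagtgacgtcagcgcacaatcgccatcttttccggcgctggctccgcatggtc
SPIN3: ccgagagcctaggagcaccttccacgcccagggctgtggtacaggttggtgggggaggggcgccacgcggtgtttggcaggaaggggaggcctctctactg
The gained promoters were HTATIP2 (chr11:20363579-20363679, plus strand), YTHDF1 (chr20:63216148-63216248, minus strand) and GGACT (chr13:100588823-100588923, minus strand).
HTATIP2: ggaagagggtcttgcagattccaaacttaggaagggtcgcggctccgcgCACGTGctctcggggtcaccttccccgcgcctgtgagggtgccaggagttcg
YTHDF1: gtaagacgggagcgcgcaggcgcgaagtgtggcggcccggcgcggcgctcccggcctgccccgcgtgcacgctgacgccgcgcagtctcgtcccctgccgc
GGACT: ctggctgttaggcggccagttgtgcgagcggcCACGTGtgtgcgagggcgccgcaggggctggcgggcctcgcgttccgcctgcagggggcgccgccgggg
PRDM15, HTATIP2 and GGACT each hold CACGTG once. MTHFD2, RGS10, SPIN3 and YTHDF1 hold no CACGTG but 1 copy of the variant CACGCG or its reverse complement CGCGTG, and RABGGTB and ZNF121 hold neither.

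The first comparison asked which MYC peaks were listed again after doxycycline. The peaks found in both lists were the high ones and lay most often at gene starts. Of 2499 peaks without doxycycline, 737 were kept (29.5%, 95% interval 27.7 to 31.3%) and 1762 were lost (70.5%). Of 1518 peaks with doxycycline, 767 were gained (50.5%, 48.0 to 53.1%). Intervals are exact (Clopper-Pearson) and cover counting error only. Within 1 kb of the start of a protein-coding gene, 515 of 1530 peaks were kept (33.7%, 31.3 to 36.1%). Inside genes, 127 of 563 were kept (22.6%, 19.2 to 26.2%), and elsewhere 95 of 406 (23.4%, 19.4 to 27.8%). Gene start peaks were also the highest, with a median pileup of 9 fragments without doxycycline against 7 in either other place. They made up 61.2% of the list without doxycycline and 53.6% of the list with it.

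The share of kept peaks went with the height of the peak. With a pileup of 4 to 5 fragments without doxycycline, 23 of 450 peaks were kept (5.11%). The share was 15.9% at 6 to 8 fragments, 32.4% at 9 to 12 and 61.0% at 13 to 19. At 20 or more fragments 154 of 179 peaks were kept (86.0%). Peaks with doxycycline were found without it more often at each height, from 116 of 600 at 4 to 5 fragments to 88 of 91 at 13 to 19 and 62 of 66 at 20 or more. Since the lists differ in depth, the same pileup stands for a relatively higher peak in the list with doxycycline. Multiplied by the ratio of the backgrounds, the pileup of 1720 peaks without doxycycline reached 4 fragments, the 10th percentile of the list with doxycycline, and 688 of them were kept (40.0%, 37.7 to 42.4%). Of the 779 peaks that did not reach it, 49 were kept (6.29%).

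**Figure D1:**
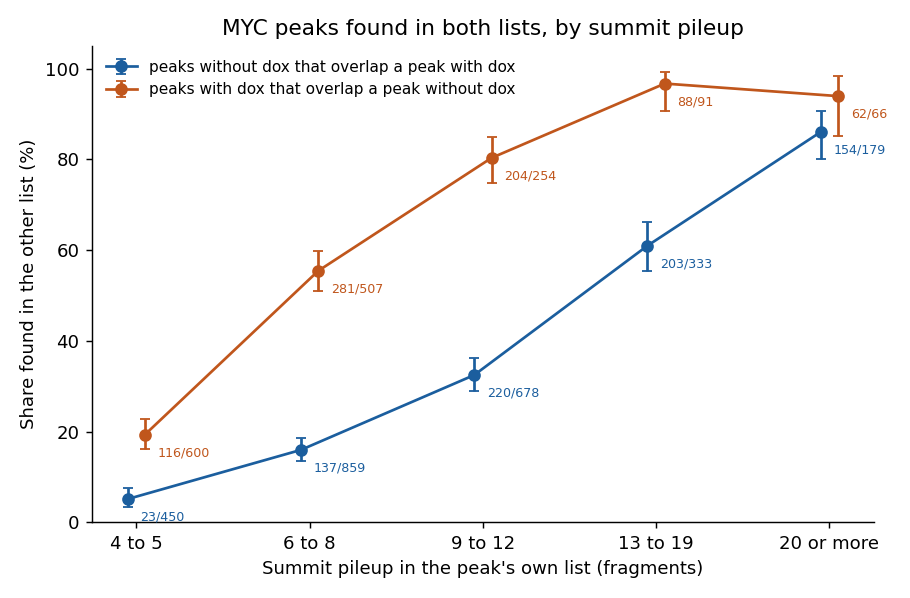
Share of MYC peaks (%) that overlap a peak of the other list, by summit pileup in the peak's own list (fragments), with exact 95% intervals and counts beside the points. Blue points are peaks without doxycycline and climb from 5.11% at 4 to 5 fragments to 86.0% at 20 or more, and orange points, peaks with doxycycline, lie above them in every bin.

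Where a peak was in both lists, it was lower with doxycycline in most cases, as the depth of the library was. Over all 737 kept peaks the median ratio of the pileup with doxycycline to that without was 0.667 (interquartile range 0.529 to 0.857), with 474 peaks above the background ratio of 0.599 and 263 at or below it. For the 154 kept peaks with 20 or more fragments without doxycycline, the median pileup was 27.5 fragments without and 16 with doxycycline. The median ratio of the pileups was 0.585 (interquartile range 0.455 to 0.696), beside the same background ratio. Of these 154 peaks, 74 lay above the background ratio and 80 at or below it. They were 86 peaks at gene starts and 68 in other places. Some of the highest had a low fold over a high local background, such as a fold of 2.32 at 103 fragments. A change in MYC binding common to all sites and a difference in depth or in the yield of the precipitation cannot be told apart here. The summits of these 154 peaks lay a median of 28.5 bp apart between the lists. Among lower peaks the ratio was larger, 0.700 at 9 to 12 fragments and 0.875 at 6 to 8, where only peaks that stayed above the calling threshold can have a ratio. A ranking taken from another library gave a similar picture. At the 100 parental MYC peaks of highest fold, 95 had a peak without doxycycline and 82 with it, 79 had both, and the median ratio at those in both was 0.644. At parental peaks ranked 501 to 1000, 308 of 500 had a peak without and 189 with doxycycline.

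**Figure D2:**
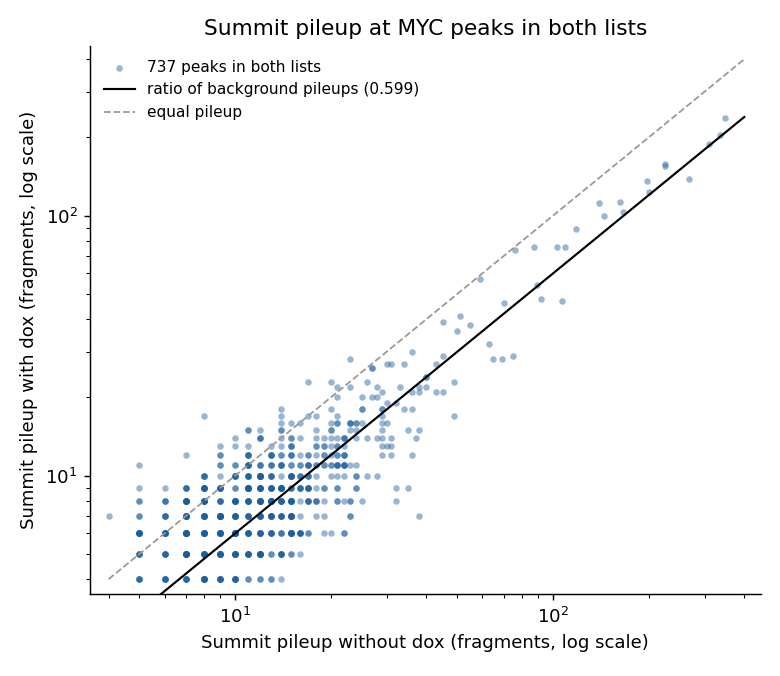
Summit pileup without doxycycline (x axis) and with it (y axis), in fragments on log scales, for the 737 MYC peaks in both lists. The solid line is the ratio of background pileups (0.599) and the dashed line equal pileup, with 474 peaks above the solid line and 263 at or below it. Of the peaks with 20 or more fragments without doxycycline, 74 are above it and 80 at or below it.

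The second comparison asked which genes had a MYC peak at the start, within 1 kb, without and with doxycycline. Of 19974 protein-coding genes, 1741 had one without doxycycline (8.72%) and 944 with it (4.73%). Of the 1741, 595 kept an overlapping peak (34.2%) and 1118 lost it (64.2%), while 28 had peaks in both lists that did not overlap. Of the 944 genes with a peak after doxycycline, 321 gained it (34%). Genes that share a promoter share a peak, so these classes rest on 509 kept, 971 lost and 278 gained peaks. The median pileup was 13 fragments at kept genes, 8 at lost genes and 6, in the list with doxycycline, at gained genes. Among the 767 genes with at least 10 fragments without doxycycline, 454 kept the peak (59.2%). At the looser q-value of 0.1 at which these lists were deposited, 11 of the 1118 lost genes had a peak with doxycycline, and 2 of the 321 gained genes had one without it. Fold, given below for each gene, is the authors' deposited enrichment of the summit over its local background, a value of the peak within its own list.

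The kept genes with the highest fold included genes for protein synthesis, RNA binding and vesicle traffic. The highest fold was at the promoter shared by MGME1, a mitochondrial exonuclease, and SNX5, a sorting nexin (chr20:17968444-17968840), with a fold of 17.5 and 45 fragments without doxycycline, and 11.7 and 21 fragments with it. The promoter shared by AIMP2, a scaffold of the multi-synthetase complex, and PMS2, a mismatch repair gene, had folds of 17.3 and 14.5 and pileups of 40 and 24 fragments. GDI2, which retrieves Rab proteins from membranes, had 30 fragments without and 27 with doxycycline, and RABGGTB, a subunit of the enzyme that prenylates Rab proteins, 29 and 12. These kept genes of Rab handling lay on opposite sides of the background ratio.

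Ribosomal and RNA genes were also among the 20 kept genes of highest fold. RPS23, a protein of the small ribosomal subunit, had 29 fragments without and 14 with doxycycline. RPSA, of the same subunit, had 24 and 11. WDR43, a factor of small subunit assembly, had 36 and 18, and LARP1, which binds messenger RNAs of the translation machinery, 36 and 12. PCBP1, a poly(C) binding protein whose peak lies also at the start of ASPRV1, had 31 and 13. PPAN, a factor of large subunit assembly, had 27 and 26 at a promoter that ANGPTL6 and the readthrough gene PPAN-P2RY11 share. The remaining kept genes of the 20 with the highest fold were CCDC88C (40 and 24 fragments), HMGN1 (32 and 19), NME2 (28 and 14), WDR4 and TET3.

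TET3, a dioxygenase that oxidises methylated cytosine, stood lowest among the kept genes of high pileup. It had 38 fragments and a fold of 16.8 without doxycycline (chr2:73984645-73985036), against 7 fragments and a fold of 5.54 with it, a ratio of 0.184. Over the 86 kept gene start peaks with at least 20 fragments without doxycycline (108 genes), the median ratio was 0.550 (interquartile range 0.455 to 0.663). Ratios under 0.3 were found at 4 peaks, those of TET3, of DNAAF5 and PRKAR1B (0.257), of LDHA (0.273) and of WDR4, a subunit of a transfer RNA methyltransferase (0.281). At the other end, 3 peaks had more fragments with doxycycline than without it in spite of the lower depth. These were CPNE7 (23 and 28 fragments), PPIA, which encodes cyclophilin A (20 and 23), and SECISBP2, a factor for selenoprotein synthesis (21 and 22). DNAAF5, PRKAR1B, CPNE7 and SECISBP2 were named after their values were seen. The WDR4 region is wide and its summit differed between the lists.

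The 20 lost genes with the highest fold all had a peak in each of the 3 parental lists. Over all lost genes, 93.6% had a parental MYC peak, 93.7% a MED17 peak and 83.8% a MED30 peak. URB1, a factor of large ribosomal subunit assembly, led the 20 with a fold of 13.8 and 26 fragments (chr21:32392801-32393169). Scaled by the background ratio that pileup comes to 15.6 fragments, above the 90th percentile of the list with doxycycline, yet no peak was listed there with doxycycline even at a q-value of 0.1. NME1, a nucleoside diphosphate kinase, and the readthrough gene NME1-NME2 share a peak of fold 11.5 and 21 fragments that was lost (chr17:51153461-51153948), while the peak at its neighbour NME2 was kept. RPS25, a ribosomal protein whose promoter peak is also counted for TRAPPC4, had a fold of 11.4 and 25 fragments. RPL23A had 23 fragments, AHCY, which hydrolyses S-adenosylhomocysteine, 21, IMPA2, an inositol monophosphatase, 21 and RGS10, a regulator of G protein signalling, 20.

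The other lost genes of the 20 with the highest fold had 13 to 19 fragments. CDK10, a cyclin-dependent kinase, had 19, ATF5, a transcription factor of the stress response, 18 and ZNF121, a zinc finger protein, 18. C6orf62 had 17, and so had the promoter shared by C6orf52 and PAK1IP1, a gene of ribosome assembly, and the peak inside OXLD1, which is also within 1 kb of the start of CCDC137. ANXA2, a membrane-binding annexin, and DHRS4L2 had 15 each, and SPIN3, a spindlin family gene, 13. Peaks of that height without doxycycline were kept in 61.0% of cases at 13 to 19 fragments, so a lost peak there is common and one of 26 fragments is not.

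Over the whole list without doxycycline, 25 peaks of 20 or more fragments were lost. Of these, 15 had a fold of at least 5, and 13 of the 15 overlapped parental MYC, MED17 and MED30 peaks. The remaining 10 had a fold under 5, which means a high local background. Of these 10, 5 lay on chromosome 21 between 8 and 9 Mb, a stretch that contains ribosomal DNA copies. Besides the gene starts above, the 15 included a peak inside MNT, a MAX partner that opposes MYC (chr17:2393775-2394076, fold 11.9, 25 fragments), and the starts of SOX12 (22 fragments) and ZP3 (20 fragments). MNT, SOX12 and ZP3 were named after their values were seen.

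MED30 itself was the gained gene with the highest fold. Its peak (chr8:117520865-117521060) lay inside the gene, within 1 kb of one of its ends, with a fold of 10.3 and 13 fragments with doxycycline. No peak was listed there without doxycycline, nor in the parental MYC, MED17 or MED30 lists. MED30 is also the gene that the hairpin is directed against. ATL2, an atlastin that shapes the endoplasmic reticulum, followed with a fold of 8.24 and 10 fragments, and SCARB1, the receptor for high-density lipoprotein, with 8.02 and 12 fragments. SNRPE, a core protein of the spliceosomal small nuclear ribonucleoproteins, had 7.89 and 10 fragments. These 3 genes all had a peak in each parental list. Over all gained genes, 93.8% had a parental MYC peak, 92.5% a MED17 peak and 85.7% a MED30 peak.

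Gained genes further down had 8 to 11 fragments. KPNB1, the importin beta that carries proteins into the nucleus, MACROD1 and SRP68, a subunit of the signal recognition particle, had 10 fragments each. POP1, a subunit of RNase P, had 8 at a peak also counted for RIDA. HTATIP2 and PNMA1 had 9. The peak at the start of SLC35B2, also within 1 kb of an end of NFKBIE, an inhibitor of NF-κB, had 10, and the promoter shared by BRD9, a chromatin remodelling subunit, and TRIP13, a mitotic checkpoint gene, had 11. All of them had a parental MYC peak, as had 93.8% of all gained genes.

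Across both gene starts and other places, 32 gained peaks had at least 10 fragments, 8 of them with a fold under 5. Of these 8, 5 lay on chromosome 21 between 8 and 9 Mb, a stretch that contains ribosomal DNA copies. Among all peaks with doxycycline, 50 of 254 were gained at 9 to 12 fragments, 3 of 91 at 13 to 19 and 4 of 66 at 20 or more. Next to MED30 in fold was a peak inside RB1 and LPAR6 (chr13:48427154-48427596, fold 10.1, 12 fragments), without a peak in any parental list. A peak of 1141 bp inside MUC1, a mucin gene, was also absent from the parental lists (fold 7.87, 12 fragments). A gained peak inside VEGFA, the vascular endothelial growth factor gene, had 10 fragments and overlapped a peak in each parental list. RB1, LPAR6, MUC1 and VEGFA were named after their values were seen.

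Well-known MYC targets and regulators on a short set list were mostly kept or without a peak. NCL, which encodes nucleolin, had 34 fragments without and 18 with doxycycline, NPM1, which encodes nucleophosmin, 18 and 13, and ODC1, the first enzyme of polyamine synthesis, 22 and 13. LDHA, lactate dehydrogenase A, had 22 and 6. CAD, the enzyme that starts pyrimidine synthesis, had 17 fragments and a fold of 9.76 without doxycycline and was lost. MYC, MED17, CDK4 and CCND2 had no start peak in either list.

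Gene lists of MYC-related functions were then counted, to be read against 34.2% kept over all genes with a peak and 59.2% among those with at least 10 fragments. Genes for ribosomes, translation and nucleotides were kept more often than 34.2%, and those for mitochondrial import and RNA polymerase II less often. At 10 or more fragments mitochondrial import kept 2 of 4, and RNA polymerase II genes 1 of 4. The lists together had 132 of 269 genes kept (49.1%). The counts are small, list members share promoters in places, and the lists also differ in height, from a median of 16 fragments for nucleotide synthesis to 8 for mitochondrial import among the lists with at least 10 bound genes.

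Ribosomal protein genes of both subunits together had the most kept genes. Of 47 genes for the large subunit, 30 had a peak without doxycycline, of which 20 were kept and 10 lost, and 4 were gained. RPL13 had 36 fragments without and 21 with doxycycline, RPL5 19 and 13 and RPL19 14 and 13. RPL6 had 18 and 7. Lost were RPL23A, RPL22 (17 fragments), RPL14 (12) and 7 lower ones, and the gained RPL32, RPL41, RPL37A and RPL34 had 4 to 6 fragments. Of 33 genes for the small subunit and its partner RACK1, 20 had a peak, with 11 kept, 9 lost and 1 gained. RPS19 had 19 fragments without and 12 with doxycycline and RPS3 16 and 9, while RPS27A (11 fragments) was lost beside RPS25. Among genes of 10 or more fragments, 16 of 20 large subunit genes and 8 of 11 small subunit genes were kept.

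Translation factors kept 14 of 25. EIF4G1, the scaffold of the cap-binding complex, had 29 fragments without and 18 with doxycycline, EIF3B 25 and 16, EEF1B2, an elongation factor that shares its promoter with NDUFS1, 24 and 16, and EEF1A1, the main elongation factor, 23 and 22. EIF3A had 19 and 6. EIF4H had peaks in both lists that did not overlap (15 and 8 fragments). GSPT1 and EEF1D were gained with 6 and 5 fragments. Of the aminoacyl-tRNA synthetase list 5 of 7 were kept, with AIMP2 highest, then YARS1 (16 and 6) and IARS1 (15 and 5). GARS1 and FARSB were lost at 10 and 9 fragments, and TARS1 was gained at 7.

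Ribosome assembly genes kept 20 of 35. Beside WDR43, PPAN, NCL and NPM1, BOP1 had 24 fragments without and 9 with doxycycline, NOLC1 20 and 15 and NOP2 15 and 11. URB1, PES1 (14 fragments) and GAR1 (12), of the ribonucleoprotein that makes pseudouridine, were the highest of 15 lost, and MYBBP1A was gained with 7. Subunits and factors of RNA polymerases I and III, which transcribe ribosomal and transfer RNA, kept 8 of 15. POLR1B had 15 and 10 fragments and GTF3C4 17 and 8. POLR3G (14 fragments) and GTF3A (12) were lost.

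Nucleotide synthesis and one-carbon genes kept 9 of 13 and had none gained. MTHFD2, the mitochondrial folate enzyme, had 25 fragments without and 18 with doxycycline, and CTPS1, which makes CTP, 21 and 13. PPAT and PAICS, enzymes of purine synthesis that share a promoter, had 16 and 10. NME1, CAD, PSPH (7 fragments) and DHODH (6) were lost. In glycolysis 5 of 7 were kept, among them ENO1 (20 and 14) and HK2 (12 and 10). SLC2A1, the glucose transporter GLUT1, was lost at 16 fragments. Polyamine synthesis kept ODC1 and SRM (13 and 11) and lost AMD1 (10).

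Mitochondrial import genes kept 2 of 12, TOMM20 (15 and 7 fragments) and TOMM5 (11 and 11). The highest of 10 lost were TOMM34 (12 fragments) and TOMM70 (10), and the others had 6 to 8. Mitochondrial ribosomal proteins kept 5 of 14, with MRPL3 (21 and 14) and MRPL15 (18 and 14) highest. In oxidative phosphorylation 2 of 4 were kept, NDUFS1 and COX5A (7 and 7). The median pileup without doxycycline was 8 fragments in the import list and 9.5 in the mitochondrial ribosome list.

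RNA polymerase II subunits and elongation factors kept 1 of 8. POLR2I had 23 fragments without and 16 with doxycycline. CDC73 and RTF1 of the PAF1 complex, POLR2H, NELFCD, CDK13, CDK9 and CCNT2 were lost, with 5 to 10 fragments each. Only 4 of the 8 had at least 10 fragments. Splicing factors kept 7 of 19, and 6 of 13 with at least 10 fragments. SRSF6 had 28 and 20 fragments and SF3B3 22 and 8, while HNRNPA2B1 (16 fragments), HNRNPAB (13) and PTBP1 (13) were lost. Chaperones kept 7 of 15. CCT5, a subunit of the chaperonin TRiC, had 26 and 23 fragments, and HSP90AB1 was lost at 18. Of nuclear transport genes 3 of 10 were kept, with RAN at 29 and 18, and NUP62 (18) and IPO7 (15) were lost. The proteasome list kept 0 of 4, with PSMA1 lost at 11 fragments and PSMA2, next to MRPL32, with separate peaks in both lists.

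Regulators of MYC and Mediator were few. In the MYC network, 4 of 5 were kept. MXD3 had 15 fragments without and 6 with doxycycline, TFAP4 14 and 9, MXD1 12 and 10 and MLXIP 11 and 9. MXI1 was lost at 5. MXD1, MXD3 and MXI1 encode MAX partners that oppose MYC. Of 31 Mediator and kinase module genes, MED20 was kept (17 and 11, at a promoter shared with BYSL), MED22 was lost at 7 and MED30 was gained. Among growth arrest genes that MYC is known to repress, GADD45B was lost at 8 and CDKN2C and CEBPA were gained at 9 and 5.

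The remaining lists had between 2 and 6 genes with a peak without doxycycline. Cell cycle and replication genes kept MCM7 (16 and 12) and CCNE2 (8 and 4) of 6, lost MCM4, PLK1, CCND3 and PCNA at 5 to 9 and gained MCM3 at 6. Cholesterol and fatty acid genes kept FASN (22 and 12) and ACLY (13 and 7) of 6, lost DHCR7 at 15 and gained INSIG1 and MVK at 7 each. Of the stress response list HERPUD1 was kept (11 and 6), and ATF5 and ATF4 (15), both stress-response transcription factors, were lost. SQSTM1, the autophagy receptor p62, was kept at 11 and 11 as the 1 kept of 3 in the lysosome list, and both histone genes with a peak, H2AC13 and H2BC13, share 1 lost peak. Markers of acinar, islet, ductal, fibroblast and immune cells and of the mesenchymal state, 55 genes in all, had no start peak in either list. A peak list shows only where MYC was found, so the labelled cell type was not checked by these markers.

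**Figure D3:**
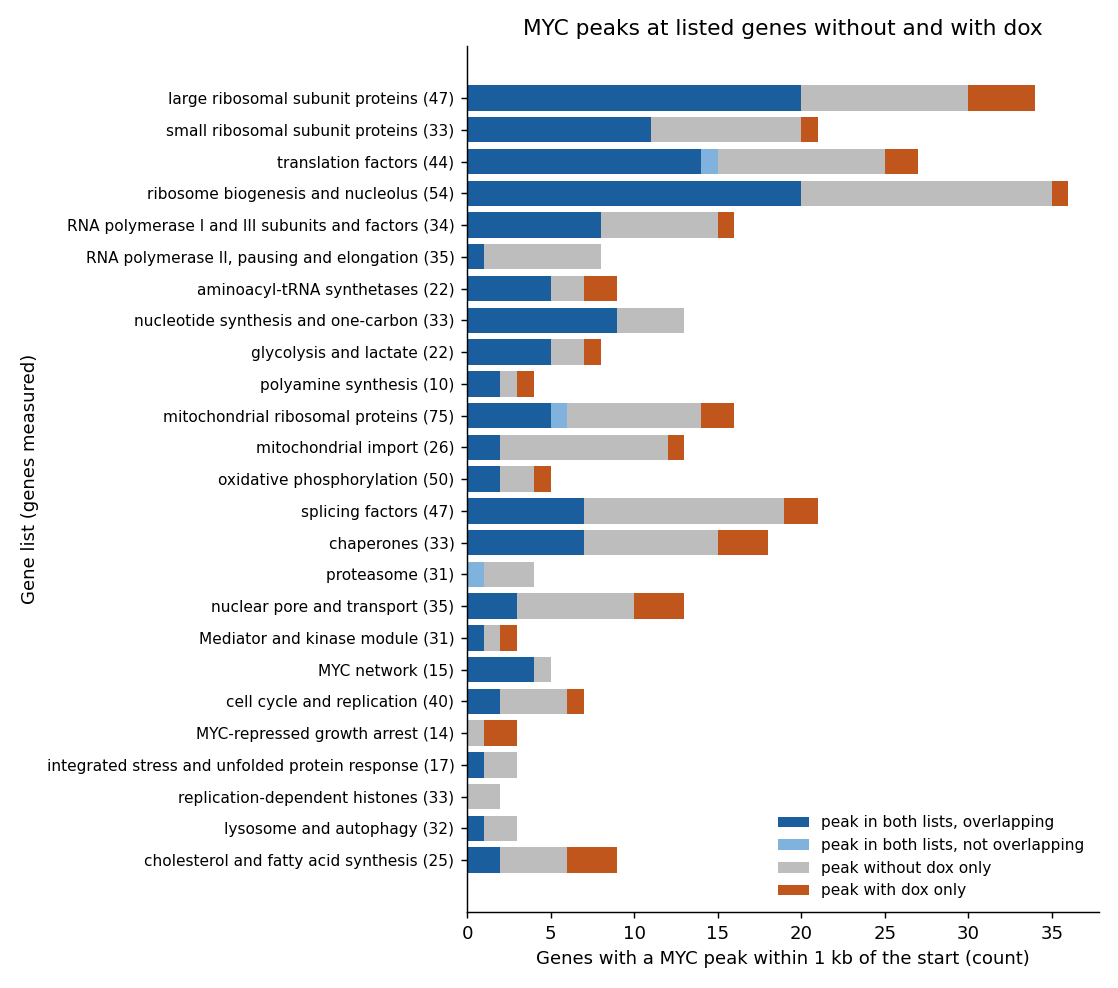
Number of genes (x axis) with a MYC peak within 1 kb of the start, for each gene list that had any (y axis, genes measured in brackets). Blue is kept, light blue peaks in both lists apart, grey lost and orange gained; the large ribosomal subunit has 20 kept against 10 lost, and mitochondrial import 2 kept against 10 lost.

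The third comparison described the same sites by the parental lists, MED30 in particular. Kept peaks lay in parental MYC, MED17 and MED30 peaks most often, gained peaks least often. Of the kept peaks, 93.9% overlapped a parental MYC peak, 79.4% a MED17 peak and 74.8% a MED30 peak (71.5 to 77.9%). Of the lost peaks the shares were 69.0%, 56.8% and 52.3% (49.9 to 54.6%), and of the gained peaks 47.5%, 39.1% and 35.3% (31.9 to 38.8%). At the starts of protein-coding genes any parental peak within 1 kb was counted, whether or not it overlapped the MYC peak. By this looser measure the classes were closer, with a MED30 peak at 89.6% of kept, 83.8% of lost and 85.7% of gained genes. A parental MYC peak was at 99.3%, 93.6% and 93.8%. Of the 17912 genes with no peak in either list, 6025 had a parental MYC peak by this measure. The MED30 share of such genes was not counted.

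Higher peaks had a MED30 peak more often, so the kept share was also compared at similar height. At 6 to 8 fragments, the kept share was 17.6% where a MED30 peak was present (14.3 to 21.3%) and 13.9% where it was not (10.6 to 17.8%). At 9 to 12 fragments the shares were 34.3% and 28.6%, at 13 to 19 fragments 63.6% and 52.5%, and at 20 or more fragments 91.2% (135 of 148, 85.4 to 95.2%) and 61.3% (19 of 31, 42.2 to 78.2%). Among peaks that also had a parental MYC peak the shares with and without MED30 lay closer together. They were 17.8% and 16.8% at 6 to 8 fragments, 34.5% and 31.5% at 9 to 12, 63.9% and 58.8% at 13 to 19, and 91.2% (85.4 to 95.2%) and 76.0% (54.9 to 90.6%) at 20 or more. At 4 to 5 fragments the order turned, with 10.7% and 13.5%. At 20 or more fragments, 12 peaks without MED30 were lost, and 10 of these had a fold under 5. Such a fold means a high local background. Of the 6 with a parental MYC peak, all but that at SOX12 had a fold under 5. Peaks of like pileup in that bin were thus not of like fold. Whether the kept shares differ by MED30 was not tested. With a parental MYC peak the kept share was 17.5% at 6 to 8 fragments, 33.7% at 9 to 12, 62.8% at 13 to 19 and 89.0% at 20 or more. Peaks without a parental MYC peak were seldom kept at any height, 25 of 218, 13 of 64, 2 of 13 and 0 of 6 in these bins. For the 0 of 6 the interval reaches 45.9%. Of those 6, all but a peak of fold 8.48 had a fold under 5.

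**Figure D4:**
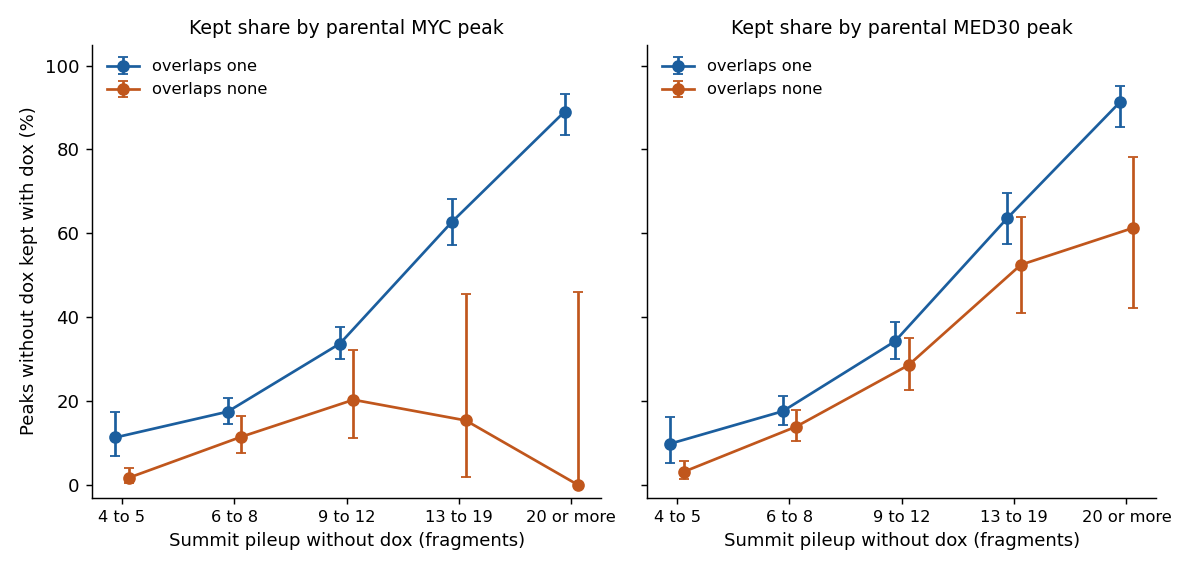
Share of MYC peaks without doxycycline that were kept (%), by summit pileup without doxycycline (fragments), with exact 95% intervals, split by overlap with a parental MYC peak (left) and a parental MED30 peak (right). Without a parental MYC peak the share stays at 20.3% or less in every bin, and with a MED30 peak it reaches 91.2% at 20 or more fragments against 61.3% without one. In that bin, 10 of the 12 lost peaks without a MED30 peak had a fold under 5.

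The fourth comparison counted E-box letters in promoters. CACGTG was more frequent at kept genes than at lost or gained ones, and at all of these more frequent than at genes overall. Promoter windows of 300 bases, from 250 before to 50 after the start, were listed for 15812 protein-coding genes, of which 1723 held CACGTG in a window (10.9%). Among kept genes 152 of 492 held it (30.9%, 26.8 to 35.2%), among lost genes 197 of 940 (20.96%, 18.4 to 23.7%) and among gained genes 53 of 264 (20.1%, 15.4 to 25.4%). Genes with no peak in either list were split by window, so a gene with several windows can count on both sides. With a parental MYC peak over the window 12.3% held it, and without a parental peak over it fewer still (797 of 10622). The variant CACGCG, searched with its reverse complement CGCGTG, was at 32.7% of kept, 30.6% of lost and 32.2% of gained genes, against 18.1% of all. The median GC content of the windows was 66.0% for kept and for lost genes, against 62.3% for all protein-coding genes. The comparison with all genes was thus not matched for base composition.

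Height again went with the difference. In windows that a peak covered, and at like pileup, CACGTG was held by 39.1% of kept and 32.4% of lost genes at 9 to 12 fragments (intervals 30.6 to 48.1% and 25.5 to 39.8%). At 13 to 19 fragments the shares were 39.5% and 36.4%, at 20 or more 34.8% and 28.6% (2 of 7 lost genes), and at 6 to 8 fragments 19.6% and 25.3%. The order of the classes thus turned in the lowest of these bins, and a difference at like height was not tested. Where the summit lay in the window, CACGTG was present for 102 of 189 kept genes (54.0%), 130 of 359 lost genes (36.2%) and 29 of 98 gained genes (29.6%). These shares were not matched for height. Over all kept genes the median pileup was 13 fragments, against 8 at lost genes. The nearest copy lay a median of 27 bp from the summit at kept genes, 28.5 bp at lost genes and 17.5 bp at gained genes. A match is a description of the letters, and no match says only that they are not in this window.

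**Figure D5:**
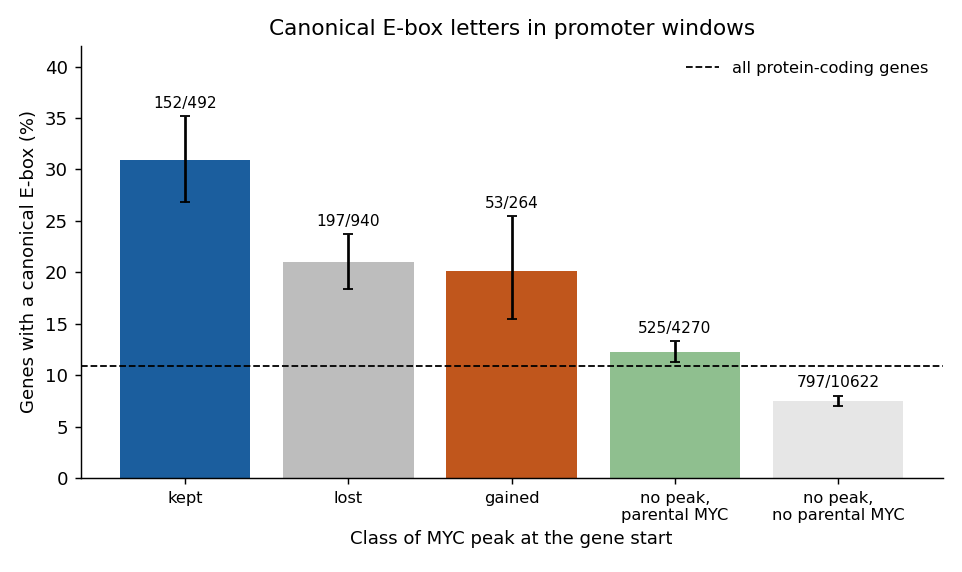
Share of protein-coding genes (%) with the canonical E-box in a 300-base promoter window, by class of MYC peak at the gene start, with exact 95% intervals and counts above the bars. Kept genes stand at 30.9%, lost genes at 20.96% and gained genes at 20.1%, all above the dashed line for all protein-coding genes (10.9%). The groups with no peak in either list can share genes that have several windows.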

How the data were processed

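Each deposited file is a peak list of 1 library. Per the submitters' processing notes, Trim Galore, Bowtie2, MACS2, deepTools and the hg38 build were used. The sources used here give neither their versions nor whether an input control was used. The authors' deposited fold enrichment is a ratio of summit pileup to local background, and the authors' p-values and q-values stand on a −log10 scale. The deposited score was not used.

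Summit pileup and local background were solved from fold, taken as (pileup + 1)/(background + 1), and a Poisson p. Fold is met by construction, and the solution met p to 0.002 log10 units at 99.6% or more of the peaks. The solver was tested on simulated data made with the same formula. Those data did not reach the highest pileups and backgrounds seen here. A list's background pileup was its smallest local background.

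Gene starts came from RefSeq promoter windows (GRCh38.p14) for 15812 of 19974 protein-coding genes, and for 4162 genes, including MED30, either gene end stood in. Members, gene lists and named genes were chosen with earlier results of these data known, so no list is independent support. Named were the 20 kept and 20 lost genes of highest fold, the 15 gained genes of highest fold, 10 fixed genes, and members of 31 gene lists with a peak. The text gives examples from each list, and some genes that the rule takes are not reported here. The 20 lost and 15 gained genes were taken from those with no peak in the other list at a q-value of 0.1. Thresholds, overlap rules, equal list lengths, scaled pileup and gene windows were varied. Python 3.11.15 with pandas 2.3.3, numpy 2.4.6 and scipy 1.17.1 was used.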

Additional observations from a re-analysis of the deposited data

How the results depend on the processing

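The share of peaks without doxycycline that were kept (29.5%) became 41.8% with lists of equal length, 40.0% for peaks whose scaled pileup reaches the other list, 32.1% with gaps of up to 1 kb, 27.0% with peak centres within 250 bp, 27.0% with gene-free stretches included and 23.2% with a reciprocal overlap of 50%. The share of peaks with doxycycline that were gained (50.5%) became 60.1% at the deposited threshold, 47.2% at a q-value of 0.01, 57.2% with equal lengths, 55.5% with peak centres and 61.7% with reciprocal overlap. The share of genes kept (34.2%) became 44.1% with equal lengths, 27.8% with reciprocal overlap and 41.8% with scaled pileup. With equal lengths 666 genes were lost in place of 1118. Over all gene lists together 58.6% were kept with equal lengths and 42.4% with reciprocal overlap. Chosen after seeing the data, CACGTG in windows under a peak stood at 35.4% of kept and 26.8% of lost genes, and MED30 overlap of lost peaks was 55.9% at a q-value of 0.01. None of the 11 gene lists with at least 10 bound genes moved outside its interval under the 10 settings tried, but the lists are small and the intervals wide. The kept share of nucleotide synthesis genes ran from 61.5% to 81.8%, inside an interval of 38.6 to 90.9%. That of mitochondrial ribosomal proteins ran from 35.7% to 45.5%, inside 12.8 to 64.9%. Staying inside such an interval therefore does not show that the share of a list is stable. No paired analysis was possible because each group had 1 library. Depth limits the comparison most for peaks without doxycycline of under 7 fragments, whose scaled pileup does not reach 4 fragments.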

Other observations

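Genes for small noncoding RNAs were not part of the counts above. Of 31 small nucleolar RNA genes with a peak within 1 kb of an end without doxycycline, 18 were kept, on 16 of 23 distinct peaks. Most lie in the introns of host genes, so their peaks are often the host promoter. SNORA9, in the host SNHG15, had 45 fragments without and 39 with doxycycline, and SNORA71D, in SNHG17, 40 and 22. SNORD74 to SNORD77, in the noncoding host gene GAS5, share 1 lost peak of 19 fragments. Small nuclear RNA genes kept 1 of 7 distinct peaks. Most of these lie in an array on chromosome 17, where the gene LOC124904138 had a lost peak of 31 fragments. Transfer RNA genes kept 0 of 12, with 11 lost on 6 peaks of at most 12 fragments, and 5 were gained. Over all RefSeq genes 33.9% were kept. The median pileup without doxycycline was 14 fragments over small nucleolar RNA genes, 16.5 over small nuclear RNA genes and 8.5 over transfer RNA genes, and over all peaks 15.9% were kept at 6 to 8 fragments and 61.0% at 13 to 19.

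Chromosome 21 between 8 and 9 Mb, a stretch that contains ribosomal DNA copies, held 10 peaks in each list, some of them outside the annotated copies. Of those without doxycycline 5 were kept and 5 lost, and 5 of those with doxycycline were gained. Median fold was 3.35 without and 3.04 with doxycycline over a local background of 15.2 and 7.91 fragments. The ribosomal DNA copies are nearly identical, as are the small nuclear RNA copies, so the copy to which a fragment belongs is uncertain. By chromosome, the kept share ran from 15.5% on chromosome 11 (17 of 110) to 43.1% on chromosome 21 (25 of 58).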
